A study of Mus musculus with 5 samples.

Results

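Glul-rich hepatocytes are barcodes of a mouse liver single-cell RNA sequencing series that carried at least 10 Glul UMIs (unique molecular identifiers, each standing for 1 captured RNA molecule) per 10000 UMIs and at least 5 Glul UMIs in all. Each barcode also had at least 1000 UMIs, at least 500 detected genes, 2 to 30% mitochondrial UMIs and under 2% hemoglobin UMIs. The rule was met by 115 of the 50000 deposited barcodes, of which 28810 passed the other filters. The members were thus chosen on a measured value, Glul, and every comparison with the remaining hepatocytes is a description without a test.

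All mice were male wild-type C57BL/6J animals on normal chow, and total hepatocytes were isolated from the liver. Every group had been trained for 3 days with 16 h of fasting overnight and 8 h of feeding by day, and on the last day received chow with drinking water containing 20% sucrose. The fed group (0 h) was sampled after 4 h of feeding at clock hour 13. The fasted groups lost food and sucrose water at that hour and were sampled 4, 8, 16 and 24 h later, at clock hours 17, 21, 5 and 13. Each group was 1 library, and how many animals it drew on is not given in the sources used here. Fasting time and hour of day therefore cannot be told apart except between 24 h and 0 h, and any difference between groups is also a difference between single libraries.

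Hepatocytes change in function along the path of blood from the portal tract to the central vein. The cells that border the central vein express glutamine synthetase (Glul) and take up ammonia that escaped the urea cycle of the periportal cells upstream. Wnt signals from the endothelium of the central vein maintain their gene program, in which Oat (ornithine aminotransferase), Slc1a2 (a glutamate transporter) and Rhbg (an ammonia transporter) accompany Glul.

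On GRCm38 with the GENCODE M21 annotation, the protein-coding gene Glul lies on the plus strand at chr1:153899944-153909723. Oat lies on the minus strand at chr7:132557478-132576398, Slc1a2 on the plus strand at chr2:102658659-102790784 and Rhbg on the minus strand at chr3:88242874-88254709. RefSeq gives the 250 bases before a transcript start of Glul and of Slc1a2, Cyp2e1 and Lect2, which were higher in the Glul-rich hepatocytes at 0, 4, 8 and 16 h (below). The windows are shown because these genes were high together, and the latter 3 because they held the motif. Capitals mark a match to CTTTGAA or CTTTGAT, letters searched on both strands as a TCF/LEF-type motif. The windows lie at chr1:153899679-153899928 (plus), chr2:102706188-102706437 (plus), chr7:140763569-140763818 (plus) and chr13:56548539-56548788 (minus) of GRCm38.p6. The Slc1a2 window lies inside the gene as placed above, before an internal transcript start. Whether that start is used in these cells was not tested, and the window is counted among the matches below.
Glul: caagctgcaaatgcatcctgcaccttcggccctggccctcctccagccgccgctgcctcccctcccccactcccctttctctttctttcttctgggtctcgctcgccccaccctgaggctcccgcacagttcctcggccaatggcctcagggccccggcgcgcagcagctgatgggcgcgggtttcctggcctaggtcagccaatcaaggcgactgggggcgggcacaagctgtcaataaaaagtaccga
Slc1a2: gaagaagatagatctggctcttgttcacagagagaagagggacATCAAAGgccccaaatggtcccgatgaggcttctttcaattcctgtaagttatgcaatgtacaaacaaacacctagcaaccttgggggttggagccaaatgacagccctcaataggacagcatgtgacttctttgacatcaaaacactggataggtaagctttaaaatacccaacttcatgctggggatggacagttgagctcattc
Cyp2e1: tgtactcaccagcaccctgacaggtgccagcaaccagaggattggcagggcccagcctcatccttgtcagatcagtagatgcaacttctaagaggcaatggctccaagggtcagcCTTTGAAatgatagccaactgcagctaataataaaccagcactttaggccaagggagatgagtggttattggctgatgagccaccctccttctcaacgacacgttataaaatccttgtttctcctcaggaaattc
Lect2: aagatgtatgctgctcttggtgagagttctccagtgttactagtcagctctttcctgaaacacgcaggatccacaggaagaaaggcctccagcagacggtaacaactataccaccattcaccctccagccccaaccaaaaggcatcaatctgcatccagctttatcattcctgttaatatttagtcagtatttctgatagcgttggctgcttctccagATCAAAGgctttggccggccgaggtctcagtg
The Glul window held no match and the other windows 1 each. Of 16 named higher genes with such a window, 4 (25%) held a match, the fourth being Cyp2c29, and of 10 named lower genes 1 did (10%, Hal), beside 8.63% of 27025 genes. A match is a stretch of letters and not a shown binding site.

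The libraries totalled 40002260 to 68330252 UMIs. The Glul-rich hepatocytes numbered 25, 25, 5, 58 and 2 in time order, counting 2, 3, 1, 0 and 1 barcodes rich in non-hepatocyte markers (below). Without mitochondrial genes they summed to 131789, 258439, 55024, 217513 and 5401 UMIs, so that 1 UMI was worth 7.59, 3.87, 18.2, 4.60 and 185 CPM, the unit in which each group's UMIs are scaled to the same total. Levels are CPM of these sums, and intervals are 95% intervals that cover counting error only, since there was 1 library per group. The other hepatocytes numbered 7574, 4536, 2699, 9011 and 4537, after barcodes rich in markers of non-hepatocytes had been removed. Reads of near-identical genes, such as the Cyp2c, Cyp4a, Mup and Serpina1 families and Saa1 with Saa2, may have been split in the deposited counts.

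Without regard to depth, Glul-rich hepatocytes were most frequent at 16 h, and they were rarest at 24 h. Each share here was taken over Glul-rich and other hepatocytes together, without the removed barcodes rich in non-hepatocyte markers. Members rich in such markers were kept. The share was 0.329% at 0 h (95% exact binomial interval 0.213 to 0.485). In the libraries at 4, 8, 16 and 24 h it was 0.548% (0.355 to 0.808), 0.185% (0.0601 to 0.431), 0.640% (0.486 to 0.826) and 0.0441% (0.00534 to 0.159). The intervals of 16 and 24 h did not overlap, whereas those of 0 and 4 h did. Depth differed between libraries: the other hepatocytes had median UMIs of 5576, 12133, 15065, 4407 and 9071, and the Glul-rich ones of 4821, 10688, 12640, 4310 and 3000. With every barcode thinned to 5000 UMIs, the shares were 0.688%, 0.638%, 0.177%, 0.510% and 0%, from 29, 19, 4, 17 and 0 Glul-rich barcodes, after 3386, 1583, 443, 5735 and 1634 shallower ones had been left out. The thinned intervals at 0, 4 and 16 h, 0.461 to 0.987, 0.385 to 0.995 and 0.297 to 0.815, overlapped. Of the thinned Glul-rich barcodes, 12, 18, 4 and 16 were members before thinning at 0, 4, 8 and 16 h. The other 17 at 0 h, at 5.22 to 9.66 Glul UMIs per 10000 before thinning, passed the minimum by the draw alone, and 7 of them had an Oat UMI. Among barcodes of at least 5000 UMIs the members, without thinning, at 0, 4 and 16 h were 0.285% (interval 0.147 to 0.497), 0.604% (0.359 to 0.954) and 0.480% (interval 0.275 to 0.778). These intervals also overlapped, and the order of the 3 libraries thus turned with how depth was handled. Of 2905 thinned barcodes at 24 h none was Glul-rich, which allows a share of up to 0.127%. Past the filters, 73 barcode sequences occurred in more than 1 library, and none of them belonged to a Glul-rich hepatocyte.

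**Figure D1:**
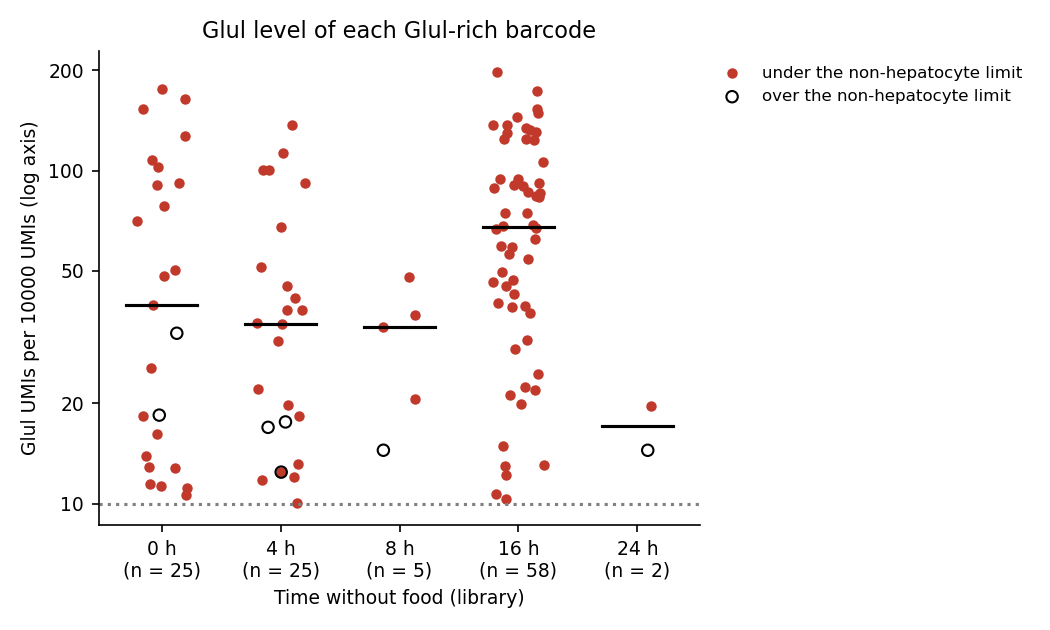
Glul UMIs per 10000 UMIs (log axis) in each of the 115 Glul-rich hepatocytes, by hours of fasting; bars are medians, open circles are members that also passed the limit for non-hepatocyte markers, and the dotted line is the minimum of 10. The medians were 39.4, 34.7, 33.9, 67.6 and 17.1, and both members at 24 h lie under 20.

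Within the group, Glul spanned from the minimum to 175, 137, 47.9, 197 and 19.7 UMIs per 10000 in time order. Members at 20 or more numbered 15 of 25, 15 of 25, 4 of 5, 51 of 58 and 0 of 2, and those at 50 or more 11, 7, 0, 36 and 0. The 16 h library thus held both the most members and the highest median.

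The label was checked against its other markers, which the rule did not use. An Oat UMI was found in 20 of 25 members at 0 h, 22 of 25 at 4 h, 4 of 5 at 8 h, 58 of 58 at 16 h and 1 of 2 at 24 h. Slc1a2 was found in 17, 21, 4, 56 and 1 of them, and the sparser Rhbg in 6, 12, 2, 10 and 0. In 10 of the 115 members (5, 3, 1, 0 and 1) none of these 3 genes was found. Cyp2e1, a perivenous cytochrome P450, outnumbered the periportal Cyp2f2 in 109 members, and 11, 7, 5, 36 and 2 members had no Cyp2f2 UMI. Oat and Slc1a2 were each present in most members at 0, 4, 8 and 16 h, and Rhbg in a minority. At 24 h Oat and Slc1a2 were present in 1 of 2 barcodes, which is too few to carry the label.

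Shares of cells with a UMI were also taken with each cell thinned to 1000 nuclear UMIs. Oat was then found in 80% of Glul-rich and 9.45% of other hepatocytes at 0 h, in 88% and 21.1% at 4 h and in 96.6% and 12.9% at 16 h. Barcodes with endothelial markers, which should lack Oat, had it in 16.1%, 25% and 17.5% (of 161, 4 and 40 barcodes), at median depths before thinning of 1723, 2319 and 1194 nuclear UMIs beside 4230, 8478 and 3771 in the Glul-rich hepatocytes. The Oat share in other hepatocytes was below that level in each of these libraries. Their median depths were 4850, 9414 and 3766 nuclear UMIs, deeper than those of the endothelial-marker barcodes. The part of RNA from outside the cells was not tested in either group. For that reason 1 Oat UMI in another hepatocyte is not read as expression, although some of the other hepatocytes had many (below). The endothelial-marker level at 4 h rests on 4 barcodes, with an interval of 0.631 to 80.6%. The share in the Glul-rich hepatocytes was far above that of the endothelial-marker barcodes at 0 and 16 h. Slc1a2 was found in 60%, 72% and 87.9% of Glul-rich hepatocytes, in 0.581%, 0.927% and 0.765% of the others and in 0.621%, 0% and 0% of the endothelial-marker barcodes.

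Some members carried markers of other cell types. The limit of 20 UMIs per 10000, with at least 3 UMIs, over 43 non-hepatocyte markers was passed by 2, 3, 1, 0 and 1 members in time order. Summed endothelial markers stood at 190, 785, 981, 9.19 and 6480 CPM in all members, and at 0, 12.2, 0, 9.19 and 0 CPM in those under the limit. At 0 h the barcodes over the limit had 3 and 1 Oat UMIs and 11 and 14 endothelial UMIs. At 4 h they had no Oat UMI and 70, 57 and 73 endothelial UMIs. At 8 h the barcode over the limit had no Oat UMI and 54 endothelial UMIs, and at 24 h it had no Oat UMI and 35. The other 24 h barcode had 3 Oat, 2 Slc1a2 and 17 Cyp2e1 UMIs. Leukocyte markers were at 0 UMIs in the members of every library, and Kupffer cell markers had 4 UMIs at 0 h and 0 in the other libraries. Stellate cell markers had 12, 5, 9, 0 and 0 UMIs, which at 0, 4 and 8 h is 91.1, 19.3 and 164 CPM against 4.57, 1.30 and 1.87 in the others, and 0, 1 and 0 UMIs in the members under the limit. Cholangiocyte markers had 2 UMIs at 0 and 16 h. Results at 0, 4 and 16 h therefore lead below, those at 8 h rest on 5 barcodes, and those at 24 h, from 2 barcodes of which 1 was rich in endothelial markers, are given with their counts but without the label.

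Just inside the threshold, at 10 to 15 Glul UMIs per 10000, the 7 fed members summed to 4257 CPM of Oat and 330 CPM of Slc1a2, from 2 and 1 of them. Just outside, at 5 to 10 with at least 5 Glul UMIs, the 92 fed barcodes had 339 and 15.2 CPM. In the fed library the threshold thus fell among barcodes of which most lacked Oat. At 4 h, 6 members inside had 5585 and 1582 CPM and 13 barcodes outside had 4739 and 693 CPM. At 16 h, 6 members inside had 5516 and 1637 CPM and 3 barcodes outside had 5410 and 1675 CPM, so that both sides carried Oat and Slc1a2. The other hepatocytes of the fed library also had more Glul, 175 CPM against 54.2, 59.6, 41.2 and 51.9 CPM in the fasted libraries in time order, and whether this was RNA from outside the cells was not tested.

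Oat and Slc1a2 were far higher in the hepatocytes with most Glul than in those without, though not in even steps. From hepatocytes without a Glul UMI to those with 50 or more per 10000, Oat went from 100.05 to 9960 CPM at 0 h, from 173 to 10499 CPM at 4 h and from 164 to 7245 CPM at 16 h. Slc1a2 went from 3.42 to 2097, from 1.68 to 2550 and from 7.49 to 2420 CPM. Between 10 and 20, 20 and 50, and 50 or more Glul UMIs per 10000, Oat was at 5319, 3824 and 7245 CPM at 16 h, and Slc1a2 at 662, 2492 and 2097 CPM at 0 h. Cps1, the entry enzyme of the urea cycle, went the other way, from 3822 to 397, from 4224 to 331 and from 3197 to 342 CPM. Among the members alone, Spearman's rho of Oat with Glul per 10000 was 0.71 at 0 h (n = 25), 0.62 at 4 h (n = 25) and 0.43 at 16 h (n = 58), and of Slc1a2 0.59, 0.56 and 0.28. For Cyp2e1 it was 0.35, 0.45 and -0.03. These values share each barcode's depth and are descriptions.

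**Figure D2:**
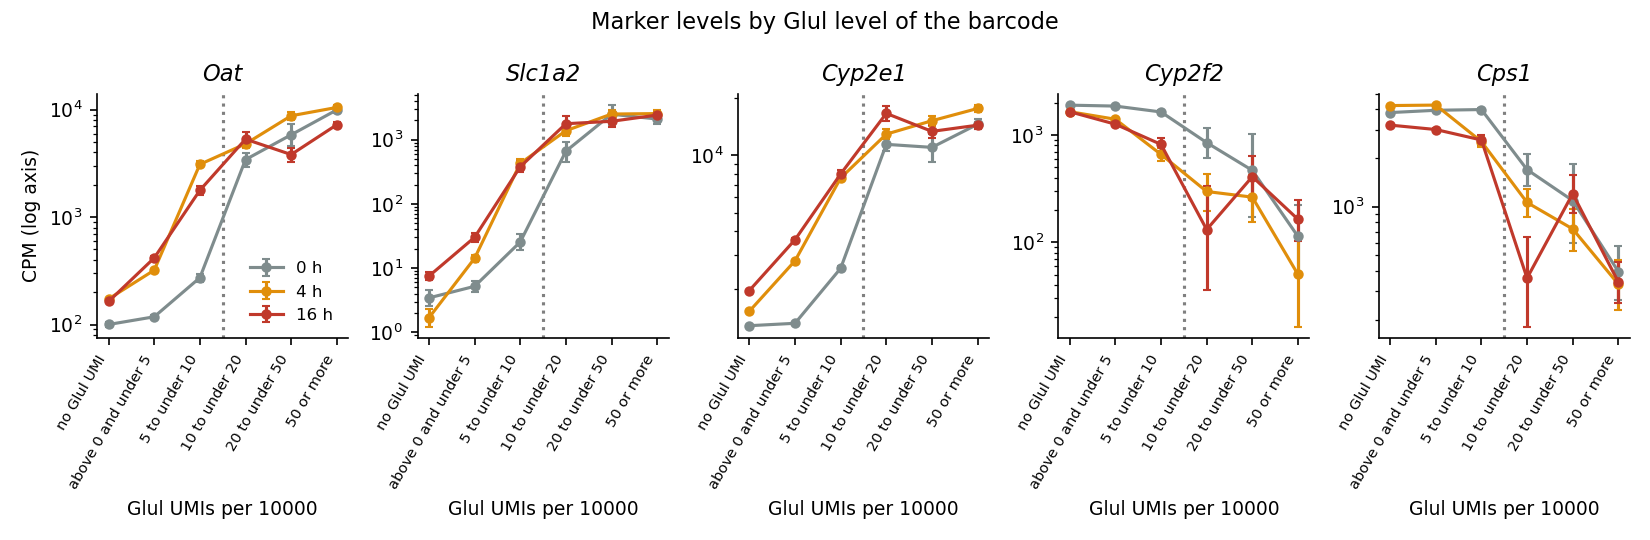
Summed level (CPM, log axis) of Oat, Slc1a2, Cyp2e1, Cyp2f2 and Cps1 in hepatocytes grouped by Glul UMIs per 10000, for the libraries at 0, 4 and 16 h; bars are 95% exact Poisson intervals and the dotted line is the minimum for a Glul-rich hepatocyte. Oat was highest in the stratum with most Glul, at 9960, 10499 and 7245 CPM, and Cps1 was lowest there at 397, 331 and 342 CPM.

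Of the genes for glutamine and ammonia handling, Oat, which joins ornithine and glutamate metabolism, stood at 7163 CPM in the Glul-rich hepatocytes of the fed library and at 120 CPM in the others. The pairs were 7994 and 258 CPM at 4 h, 3762 and 95.4 at 8 h, 6243 and 212 at 16 h, and 556 (3 UMIs) and 25.7 at 24 h. As log2 ratios these were 5.89 (5.79 to 6.00), 4.95 (4.88 to 5.02), 5.30 (5.09 to 5.50), 4.88 (4.79 to 4.96) and 4.43 (2.15 to 5.98). Oat was higher at 0, 4, 8 and 16 h, and its ratio was largest in the fed one, where the others had less Oat than at 4 or 16 h.

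Slc1a2, which brings glutamate into the cell, was at 1609, 2113, 1199, 2225 and 370 CPM in the Glul-rich hepatocytes, the last from 2 UMIs. In the others it was at 14.2 CPM or less, and the log2 ratios were 8.06, 7.71, 9.52, 7.29 and 9.24. Rhbg, which carries ammonium across the membrane, was found with 7, 31, 3, 14 and 0 UMIs, and its log2 ratios in the first 4 libraries were 5.70, 6.85, 5.76 and 6.06. Both transporters were thus sparse in the other hepatocytes. Slc13a3, a dicarboxylate transporter, gave 7.88, 7.60, 8.80 and 6.64 from 15, 20, 8 and 17 UMIs. Glul itself, the gene of the rule, was at 7618, 6234, 3726, 8698 and 1852 CPM.

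Glutamine breakdown was on the other side. Gls2, the liver glutaminase, was at 114 CPM in the Glul-rich and 542 CPM in the other fed hepatocytes, at 38.7 and 420 CPM at 4 h and at 46.0 and 346 CPM at 16 h. The log2 ratios were -2.25, -3.44 and -2.91, from 15, 10 and 10 UMIs, and at 8 h no Gls2 UMI was found. Of the 12 genes of the glutamine and ammonia list with 50 CPM or more in either group, Oat, Slc1a2 and Rhbg lay above 2-fold with their whole interval, and Gls2 below it, at 0, 4, 8 and 16 h, apart from Glul, which the rule had chosen. Over all genes 2.19%, 3.54%, 4.34% and 2.3% lay above and 0.649%, 1.74%, 1.04% and 1.29% below. Slc1a2 and Rhbg reached 50 CPM in the Glul-rich hepatocytes only, and Gls2 at 4, 8 and 16 h in the other hepatocytes only. The direction of these calls was thus fixed by the entry rule, and they are not counted beside those of Oat and of Gls2 at 0 h. Glud1, glutamate dehydrogenase, differed less, by 0.41, 0.28, 0.22 and 0.48 on the log2 scale.

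**Figure D3:**
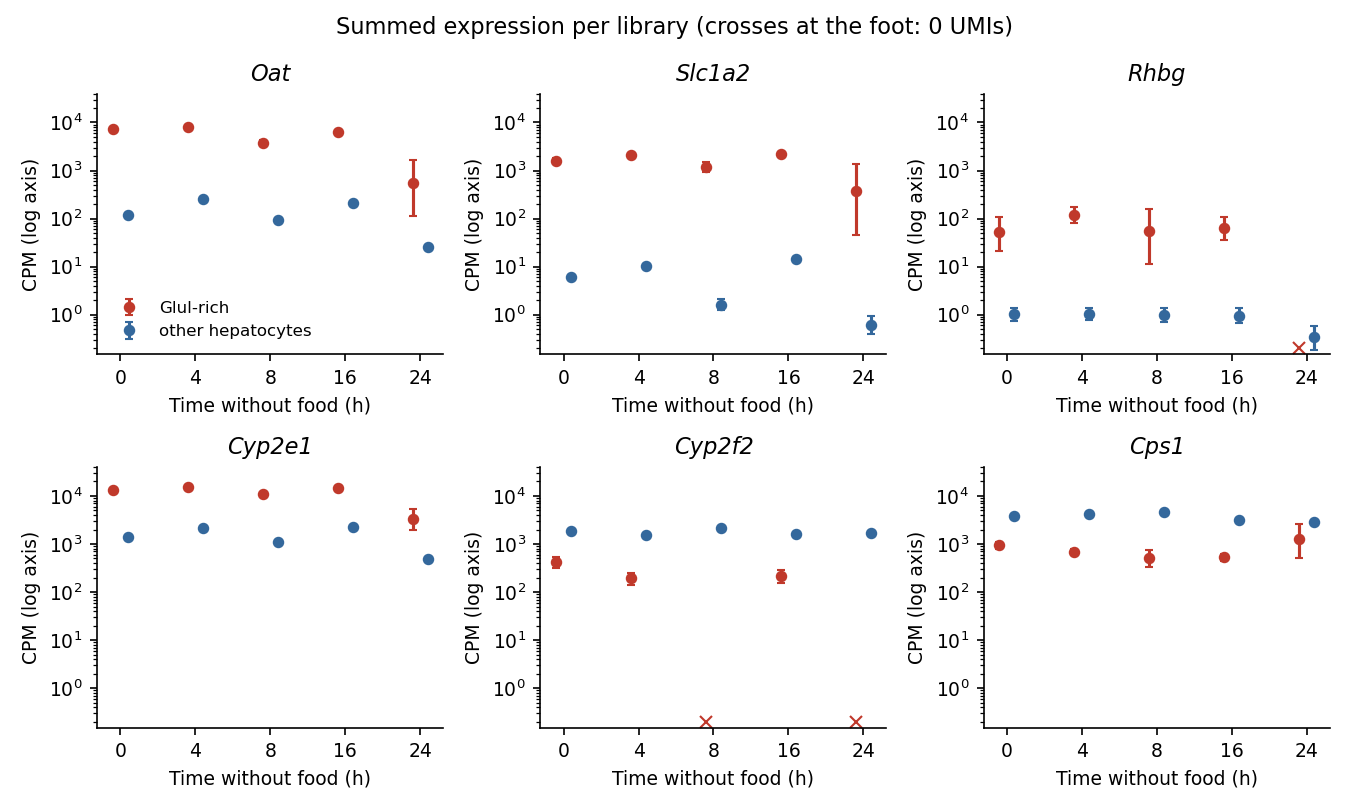
Level (CPM, log axis) of Oat, Slc1a2, Rhbg, Cyp2e1, Cyp2f2 and Cps1 in Glul-rich (red) and other (blue) hepatocytes of each library; bars are 95% exact Poisson intervals and crosses mark 0 UMIs. Oat, Slc1a2 and Cyp2e1 were higher in the Glul-rich hepatocytes at 0, 4, 8 and 16 h, Oat by log2 ratios of 4.88 to 5.89, and the 24 h points rest on 2 barcodes.

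A gene entered a comparison with at least 50 CPM in either group. Of 3235 genes at 0 h, 311 (9.61%) were at least 2-fold higher and 163 (5.04%) at least 2-fold lower in the Glul-rich hepatocytes. With the whole counting interval beyond 2-fold, 71 (2.19%) were higher and 21 (0.649%) lower, so that most 2-fold differences had an interval that reached under 2-fold. At 4 h, 260 (8.21%) of 3166 genes were 2-fold higher and 153 (4.83%) lower, and 112 (3.54%) and 55 (1.74%) by interval. At 8 h the numbers were 921 (25.1%) and 291 (7.94%) of 3663, and 159 (4.34%) and 38 (1.04%) by interval. At 16 h they were 196 (6.17%) and 149 (4.69%) of 3177, and 73 (2.3%) and 41 (1.29%) by interval. By the 2-fold rule alone TMM scaling, which trims extreme genes before setting the total, gave 159 higher and 278 lower at 0 h, 131 and 238 at 4 h, 202 and 663 at 8 h and 130 and 191 at 16 h. By interval it gave 60 higher and 41 lower at 0 h, 87 and 91 at 4 h, 72 and 87 at 8 h and 66 and 46 at 16 h. The excess of higher genes by the 2-fold rule, and at 4 and 8 h also by interval, thus turned with the scaling. Over the genes with at least 50 CPM in both groups, it moved the median log2 ratio from 0.07 to -0.14 at 0 h, from 0.10 to -0.10 at 4 h and from 0.19 to -0.27 at 8 h. Without the barcode over the non-hepatocyte limit, the 8 h counts were 81 and 36. At 24 h 1687 (45.7%) and 120 (3.25%) of 3689 genes were 2-fold higher and lower, the intervals of 327 (8.86%) and 13 (0.352%) lay beyond 2-fold, and 57 and 1 did without the barcode rich in endothelial markers.

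In each of the libraries at 0, 4 and 16 h, 73 of 2559 genes (2.85%) were 2-fold higher and 44 (1.72%) lower, and 45 (1.76%) and 15 (0.586%) with intervals beyond 2-fold. In all 5 libraries 24 of 2239 genes (1.07%) were 2-fold higher and 12 (0.536%) lower. By interval 8 of 2239 genes (0.357%) were higher, Glul, which the rule had chosen, and Akr1c6, Cd36, Cyp2a5, Cyp2e1, Lect2, Oat and Slc1a2, and 2 (0.0893%) were lower, Cyp2f2 and Pigr. These counts use the 2 barcodes at 24 h. Without the members over the non-hepatocyte limit, 8 were higher, with Cyp2c29 in place of Cd36, and 0 were lower, so that the calls of Cyp2f2 and Pigr in all 5 libraries rest on such members. Across genes with at least 10 UMIs in each group, the log2 ratios of separate libraries correlated with Pearson's r = 0.806 and Spearman's rho = 0.576 between 0 and 4 h (2077 genes), 0.784 and 0.561 between 0 and 16 h (2023 genes) and 0.771 and 0.517 between 4 and 16 h (2802 genes). Genes are not independent replicates, and this is a description.

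Perivenous genes other than those of glutamine handling were also higher. Of a list of 26 perivenous genes, 24, 26, 24 and 24 were measured at 0, 4, 8 and 16 h, every one of them with a log2 ratio above 0. The intervals of 20, 20, 18 and 19 lay above 2-fold, beside 2.19%, 3.54%, 4.34% and 2.3% of all genes, and the medians were 2.79, 2.74, 2.76 and 2.34 beside 0.13, 0.17, 0.41 and 0.11. Of these genes 4, 6, 4 and 5 reached 50 CPM in the Glul-rich hepatocytes only and so had to be higher there. Of the 20, 20, 20 and 19 with 50 CPM in both groups, the intervals of 16, 14, 15 and 14 lay above 2-fold, beside 1.51%, 1.77%, 1.40% and 1.31% of all such genes. Cyp2e1, which oxidises ethanol and small solvents, was at 13021 CPM against 1371 at 0 h, at 15249 against 2123 at 4 h, at 10814 against 1115 at 8 h, at 14441 against 2228 at 16 h and at 3333 against 478 at 24 h. Its log2 ratios of 3.25, 2.84, 3.28, 2.70 and 2.80 were smaller than those of Oat and Slc1a2. Cyp2a5, another cytochrome P450, gave 4.65, 3.96, 4.99, 4.45 and 4.71, and Cyp1a2, which hydroxylates aromatic amines, 3.75, 3.15, 2.73 and 3.33 in the first 4 libraries. Gulo, the last enzyme of vitamin C synthesis, gave 4.07, 3.67, 3.94 and 3.30, and Cyp7a1, the rate-limiting enzyme of bile acid synthesis, 2.71, 3.17, 3.33 and 3.42.

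Cd36, a fatty acid transporter, was at 524 CPM against 29.3 at 0 h, at 341 against 17.2 at 4 h, at 127 against 3.4 at 8 h and at 478 against 37.8 at 16 h. Its log2 ratios were 4.16, 4.31, 5.25 and 3.66. Lect2, a secreted hepatokine, gave 4.06, 3.66, 4.36 and 2.95. Rdh9, of the retinol dehydrogenase family, gave 5.26, 4.76, 4.51 and 3.39, and Serpina7, the thyroxine-binding globulin, 5.47, 4.95, 6.26 and 4.26. These genes, like Oat, had smaller ratios at 16 h than at 0 h. In the other hepatocytes all 4 were under 50 CPM, so that they entered the comparison through the Glul-rich group only.

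Wnt target genes were sparse, and of a list of 12 only 1, 1, 2 and 3 reached 50 CPM at 0, 4, 8 and 16 h, each in the Glul-rich hepatocytes only. The 3 described first were chosen after their values were seen and were partly under that minimum. Tbx3, a transcription factor, had 6, 38, 10 and 24 UMIs at 0, 4, 8 and 16 h, with log2 ratios of 3.51 (2.04 to 4.66), 4.53 (4.01 to 5.03), 5.17 (4.09 to 6.09) and 3.45 (2.79 to 4.05). Lgr5, a receptor for R-spondins, had 5, 10, 2 and 11 UMIs, with 5.46, 5.82, 8.67 and 5.19. Axin2, a feedback inhibitor of the pathway, had 3, 6, 3 and 9 UMIs, with 4.11, 3.54, 5.42 and 3.93. Their ratios were above 0 in these 4 libraries, from few UMIs. Notum, a Wnt deacylase and the only one of the list over 50 CPM at 0 h, had 13, 9, 0 and 13 UMIs, and in the libraries with a UMI its log2 ratios were 3.01 (2.08 to 3.79), 1.93 (interval 0.79 to 2.87) and 1.60 (interval 0.69 to 2.39). Its interval thus reached under 2-fold at 4 and 16 h. Sp5, a transcription factor, had 0, 10, 0 and 6 UMIs. Znrf3 had 2, 4, 0 and 9 UMIs at these times, and Rnf43 had 4, 2, 2 and 5. Ccnd1 had 1, 2, 1 and 0, and Nkd1 had 0, 0, 0 and 1. Tcf7, Lef1 and Apcdd1 had no UMI in any member.

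Periportal genes were lower. Of a list of 24, 23 were measured in each of the first 4 libraries, none of them with a log2 ratio above 0. The intervals of 13, 18, 16 and 16 lay below 2-fold, beside 0.649%, 1.74%, 1.04% and 1.29% of all genes, and the medians were -1.98, -2.81, -2.68 and -2.14 beside 0.13, 0.17, 0.41 and 0.11. Of these genes 5, 8, 12 and 5 reached 50 CPM in the other hepatocytes only. Of the 18, 15, 11 and 18 with 50 CPM in both groups, the intervals of 11, 11, 7 and 12 lay below 2-fold, beside 0.673%, 1.26%, 0.903% and 0.944% of all such genes. Cyp2f2, a periportal cytochrome P450, was at 417 CPM against 1858 at 0 h, at 194 against 1529 at 4 h and at 212 against 1584 at 16 h, with log2 ratios of -2.15 (-2.56 to -1.77), -2.98 and -2.91. At 8 and 24 h no Cyp2f2 UMI was found in the members, against 2162 and 1678 CPM in the others. Hal, which breaks down histidine, gave -2.37, -2.90 and -2.90 at 0, 4 and 16 h, and Gldc of the glycine cleavage system -1.91, -4.09 and -3.02 from 7, 4 and 6 UMIs. Hsd17b13, a lipid droplet enzyme, gave -1.92, -2.97 and -2.85.

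The periportal ratios depended on which fed barcodes were counted. The 5 fed members without Oat, Slc1a2 and Rhbg, at 10.7 to 12.9 Glul UMIs per 10000, carried 38 of the 55 fed Cyp2f2 UMIs. With a Glul minimum of 20 the fed ratio of Cyp2f2 was -3.47, that of Gls2 -3.50, of Hal -3.29 and of Cps1 -2.95. With a minimum of 5 they were -0.50, -0.22, -0.38 and -0.18, all under 2-fold, and Oat and Slc1a2 still stood at 3.59 and 5.48. At 4 h the values nearest 0 over the settings tried were -0.43 for Hal and -2.01 for Gls2, both with at most 15% mitochondrial UMIs, -1.08 for Cyp2f2 against the others with most Cyp2e1 and -1.55 for Cps1 with a Glul minimum of 5.

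The urea cycle, which the periportal list shares in part, was lower in some enzymes only. Cps1 was at 941 CPM against 3899 at 0 h, at 696 against 4225 at 4 h, at 509 against 4553 at 8 h and at 529 against 3165 at 16 h, with log2 ratios of -2.05, -2.60, -3.16 and -2.58. Ass1, which forms argininosuccinate, gave -1.22, -1.97, -2.13 and -2.02, and Asl, which splits it, -1.59, -2.15, -2.03 and -1.89. Otc, which forms citrulline, gave -0.95, -0.85, -1.42 and -1.06, a smaller difference than that of Cps1. Of the 8 genes measured, the intervals of 2, 4, 4 and 4 lay below 2-fold, beside 0.649%, 1.74%, 1.04% and 1.29% of all genes. With a Glul minimum of 5 per 10000 the fed ratios of Ass1 and Asl were -0.16 and -0.39, and with no lower limit on mitochondrial UMIs that of Asl at 4 h was -0.75, all under 2-fold. Pck1, the committing enzyme of gluconeogenesis, gave log2 ratios of -1.20, -1.11, -1.32, -1.54 and -1.87, with the interval below 2-fold at 8 and 16 h only. Against the others with most Cyp2e1 they were -0.46, -0.70 and -0.97 at 0, 4 and 16 h, under 2-fold. Pck1 was also under 2-fold with a Glul minimum of 5, at -0.70 and -0.83 at 0 and 4 h, and as a mean over cells, at -0.96 and -0.61.

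**Figure D4:**
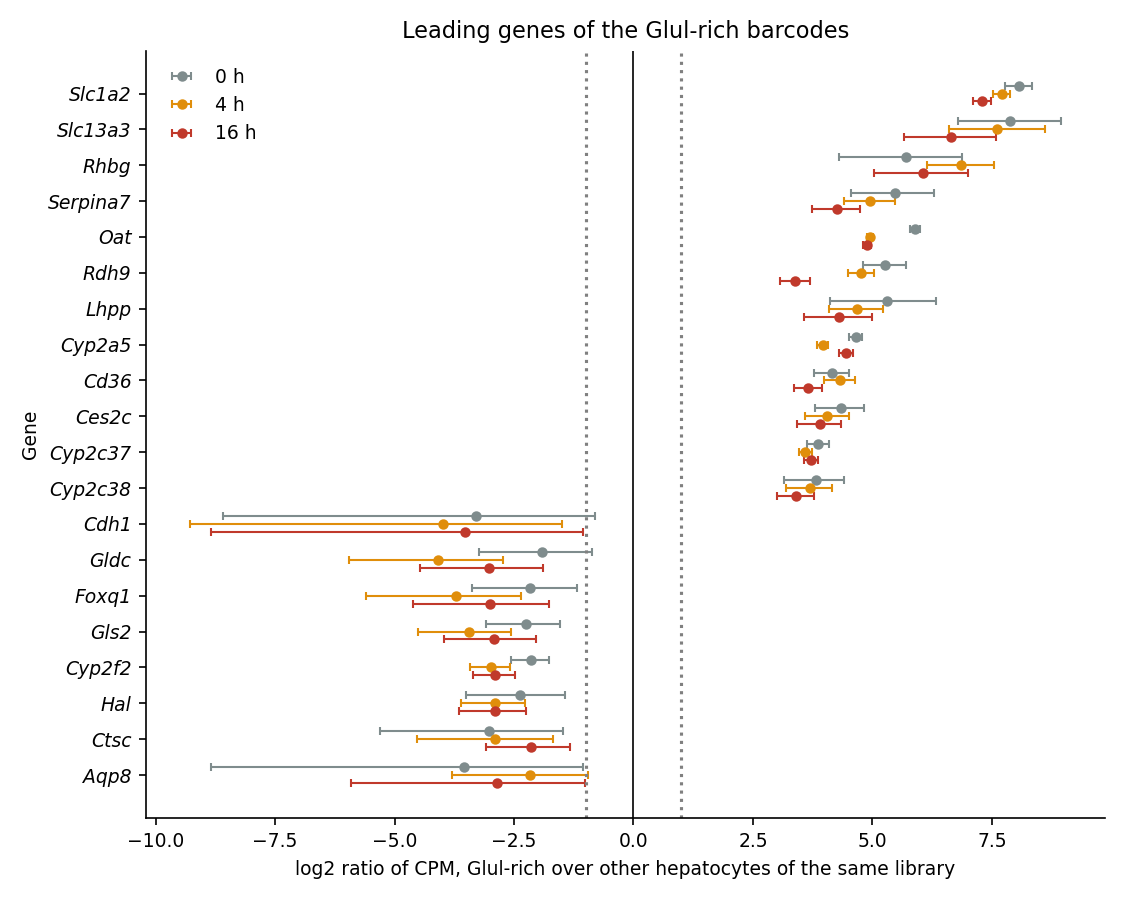
Log2 ratio of Glul-rich to other hepatocytes at 0, 4 and 16 h for 12 higher and 8 lower genes with the largest median ratio over these libraries; bars are 95% counting intervals and dotted lines mark 2-fold. Slc1a2 lies at 7.29 to 8.06 and Oat at 4.88 to 5.89, while the lower genes such as Gldc rest on few UMIs and have wide intervals.

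Against only the upper tercile of the other hepatocytes by Cyp2e1, the ratios of the perivenous markers were smaller and that of Cps1 was not. Cyp2e1, which chose that tercile, then gave log2 ratios of 1.32, 0.87, 1.39 and 1.10 at 0, 4, 8 and 16 h. Oat gave 4.14, 3.12, 3.45 and 3.36, Slc1a2 6.19, 5.69, 7.62 and 5.70, and Rhbg 4.61, 5.30, 5.24 and 4.84. Cps1 gave -2.10, -2.62, -3.22 and -2.58, about as in the comparison with all. Not every lower gene kept its ratio. Cyp2f2 gave -1.08 at 4 h, Pck1 gave -0.46 at 0 h and -0.97 at 16 h, and Ctsc turned to 0.37 at 4 h and 0.23 at 16 h. Genes higher by interval in each of 0, 4 and 16 h numbered 20 rather than 45, and lower ones 6 rather than 15.

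Chosen by Oat at the same minimum in place of Glul, 157, 245, 83, 386 and 3 barcodes were found, of which 17, 22, 4, 55 and 0 were Glul-rich and 46, 83, 37, 202 and 1 had no Glul UMI. Chosen by Slc1a2, 23, 25, 4, 74 and 1 were found, of which 15, 15, 3, 46 and 0 were Glul-rich. Oat was thus the wider marker, and Slc1a2 picked a group of about the size of the Glul-rich one.

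Metabolic lists other than the zonal ones had medians nearer 0 between Glul-rich and other hepatocytes. The glycolysis and lipogenesis genes had medians of -0.53, -0.62, -0.49 and -1.11 at 0, 4, 8 and 16 h, with the intervals of 0 of 14, 2 of 13, 1 of 10 and 2 of 12 genes below 2-fold, beside 0.649%, 1.74%, 1.04% and 1.29% of all genes. Gluconeogenesis had medians of -0.65, -0.30, -0.74 and -0.53, and fatty acid oxidation and ketogenesis 0.20, 0.41, 0.17 and 0.18. Among the latter, Acot1, an acyl-CoA thioesterase, was higher by 2.21 (1.78 to 2.61), 1.99 (0.98 to 2.83) and 2.54 (2.04 to 3.00) at 4, 8 and 16 h, and at 0 h, with 4 UMIs, was under the minimum of 50 CPM. In the other hepatocytes it was at 42.5, 50.3 and 30.8 CPM, so that at 4 and 16 h it passed the minimum through the Glul-rich group only. By interval 1 of 16, 4 of 19, 0 of 18 and 3 of 19 genes of that list lay above 2-fold, beside 2.19%, 3.54%, 4.34% and 2.3% of all genes, and of those with 50 CPM in both groups 1 of 16, 2 of 17, 0 of 17 and 1 of 17. Acute-phase genes had medians of -0.75, -1.01, -1.07 and -0.16. Of the genes that mark stress from cell isolation, 4, 3, 3 and 5 of 12 were measured, with medians of -0.59, -1.12, -0.08 and -1.37.

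The fasted libraries were next set against the fed one within the Glul-rich hepatocytes. All these comparisons share the 25 fed members, 5 of which had none of Oat, Slc1a2 and Rhbg. Of 3477 genes at 4 h, 461 (13.3%) were at least 2-fold higher and 427 (12.3%) lower than fed, and the intervals of 61 (1.75%) and 54 (1.55%) lay beyond 2-fold. At 8 h 1015 (25.5%) and 612 (15.4%) of 3983 genes were 2-fold higher and lower, with 71 (1.78%) and 32 (0.803%) by interval. At 16 h the numbers were 351 (10.2%) and 421 (12.2%) of 3456, with 25 (0.723%) and 41 (1.19%) by interval. By interval TMM scaling gave 78 and 49 at 4 h, 29 and 77 at 8 h and 31 and 37 at 16 h, and by the 2-fold rule 602 and 383, 501 and 919, and 538 and 331. The 8 h splits and the 2-fold split at 16 h thus turned. At 24 h, from 2 barcodes, 1730 (43.2%) and 135 (3.37%) of 4007 genes were 2-fold higher and lower, 130 (3.24%) and 24 (0.599%) by interval, and 34 and 4 without the barcode rich in endothelial markers. Mitochondrial UMIs also differed, with medians of 9.03%, 17.2%, 6.92%, 11.5% and 11.1% in the members and 12.04%, 19.2%, 9.80%, 13.8% and 16.3% in the others. A limit of 15% left 21, 7, 5, 48 and 1 members, and with it 2274 genes at 4 h differed 2-fold from the others and 2324 from fed, in place of 413 and 888.

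Perivenous genes of the Glul-rich hepatocytes had median log2 ratios to fed of 0.06, -0.06 and -0.13 at 4, 8 and 16 h, and periportal genes of -0.52, -0.66 and -0.12, beside -0.03, 0.26 and -0.04 over all genes measured. Urea cycle genes had medians of -0.05, 0.18 and -0.10, and those of fatty acid oxidation and ketogenesis 0.46, 0.30 and 0.37. The log2 ratios of Oat to fed at 4, 8 and 16 h were 0.16 (0.05 to 0.27), -0.93 (-1.15 to -0.71) and -0.20 (-0.32 to -0.08), those of Slc1a2 0.39, -0.42 and 0.47, and those of Cyp2e1 0.23, -0.27 and 0.15. The signs for Oat and Slc1a2 moved with the selection. With at most 15% mitochondrial UMIs, which left 7 members at 4 h, the 4 h values of Oat and Slc1a2 were -0.45 and -0.30, and with no lower limit on mitochondrial UMIs -0.02 and -0.29. With a Glul minimum of 5 per 10000, which took in fed barcodes with little Oat, Oat gave 2.26 and 2.15 and Slc1a2 2.56 and 3.07 at 4 and 16 h. Of 26 measured perivenous genes at 4 h, 1 was above and 1 below 2-fold by interval, beside 1.75% and 1.55% of all genes. Mup17, a major urinary protein, was the lower one, at 6161 CPM fed and 2681 at 4 h (-1.20, -1.35 to -1.05). Ahr, the aryl hydrocarbon receptor, was the higher one, with 30.4 CPM fed and 170 at 4 h (4 and 44 UMIs, log2 ratio 2.49, 1.03 to 4.43), and passed the 50 CPM minimum through the 4 h group only. At 16 h it stood at 156 CPM (2.36, 0.88 to 4.32), and in the other hepatocytes it differed by 0.63 at 4 h and 0.32 at 16 h. Cyp7a1 was at 470 CPM fed, 1103 at 4 h, 709 at 8 h and 271 at 16 h, with log2 ratios of 1.23, 0.59 and -0.79, while in the others they were 0.77, -0.03 and -1.50.

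Lipogenic genes were lower in the fasted libraries. Of 14 measured glycolysis and lipogenesis genes, 12, 11 and 12 were at least 2-fold lower at 4, 8 and 16 h, beside 12.3%, 15.4% and 12.2% of all genes. The intervals of 7, 5 and 9 lay below 2-fold, beside 1.55%, 0.803% and 1.19% of all genes, and none above. At each time 4 of the 14 reached 50 CPM in the fed group only, and of the other 10 the intervals of 4, 3 and 6 lay below 2-fold, beside 1.21%, 0.746% and 0.668% of the genes with 50 CPM in both groups. The medians were -1.67, -2.12 and -2.83, beside -1.21, -1.47 and -2.22 in the other hepatocytes. Fasn, fatty acid synthase, was at 1389 CPM (183 UMIs) fed, 54.2 (14) at 4 h, 109 (6) at 8 h and 59.8 (13) at 16 h. Its log2 ratios to fed were -4.68 (-5.58 to -3.90), -3.67 and -4.54 (-5.47 to -3.73), and in the others -4.61, -4.44 and -4.00. Fasn was thus low from 4 h on in both.

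Thrsp, a regulator of lipogenesis, was at 2383 CPM fed, 1029 at 4 h, 454 at 8 h and 59.8 at 16 h, with log2 ratios of -1.21, -2.39 and -5.32. Acly, which makes cytosolic acetyl-CoA, was at 1024, 124, 54.5 and 59.8 CPM, with -3.05, -4.23 and -4.10 beside -2.12, -3.54 and -3.06 in the others. Scd1, the stearoyl-CoA desaturase, gave -1.32, -1.26 and -0.58 in the Glul-rich and -0.34, -0.56 and 0.32 in the other hepatocytes.

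Of the gluconeogenesis list, the intervals of Pck1, Got1 and Tat, a tyrosine-degrading enzyme, lay above 2-fold at 4 h, those of Pck1 and Got1 at 8 h and that of Pck1 at 16 h. These are 3, 2 and 1 of 12 measured genes, beside 1.75%, 1.78% and 0.723% of all genes, and none of the 12 lay below. Pck1 was at 395 CPM (52 UMIs) fed, 1857 (480) at 4 h, 1472 (81) at 8 h and 1292 (281) at 16 h. Its log2 ratios to fed were 2.23 (1.82 to 2.68), 1.90 (1.38 to 2.43) and 1.71 (1.28 to 2.17), beside 2.14, 2.01 and 2.05 in the other hepatocytes. The ratios of the other hepatocytes lay within the intervals of the Glul-rich ones, and the Pck1 level was lower in the Glul-rich hepatocytes of each library. Got1, an aspartate aminotransferase, was at 53.1 CPM (7 UMIs), 472, 745 and 138 CPM. G6pc, which releases free glucose, gave 0.26 (-0.39 to 0.94), 0.99 (0.14 to 1.82) and 0.86 (0.24 to 1.52).

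Igfbp1, an insulin-repressed binding protein of insulin-like growth factors, had no UMI in the fed members. It was at 391 CPM at 4 h, 781 at 8 h and 55.2 at 16 h (101, 43 and 12 UMIs), at least 17.2-, 34.3- and 2.42-fold higher against a floor of 3 UMIs over the fed group. In the other hepatocytes it went from 21.6 CPM to 276, 275 and 118 CPM. Mt1, a metallothionein, was at 98.6 CPM (13 UMIs) fed and at 1679, 1072 and 924 CPM, and Elovl3, a fatty acid elongase, at 30.4 CPM (4 UMIs) and 499, 1545 and 234 CPM. Both were also higher in the fasted other hepatocytes, Mt1 by 5.62, 5.83 and 3.75 against 4.09, 3.44 and 3.23 in the Glul-rich, and Elovl3 by 5.19, 6.97 and 3.24 against 4.04, 5.67 and 2.95. With a Glul minimum of 20 per 10000 the Mt1 ratios at 4 and 16 h were 6.83 and 6.20.

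Acute-phase genes were high at 16 h. All 14 had a log2 ratio to fed above 0, 8 were at least 2-fold higher (beside 10.2% of all genes), and the intervals of 7 lay above 2-fold (beside 0.723%), Saa1, Saa2, Saa3, Lcn2, Orm2, Fgb and Fgg, with a median of 1.30. Of the 14, 4 reached 50 CPM at 16 h only, and of the other 10 the intervals of 3 lay above 2-fold, beside 0.459% of the genes with 50 CPM in both groups. In the other hepatocytes all 14 were also above 0, 5 were at least 2-fold higher (beside 3.39% of all genes measured there, with 4.09% lower) and the median was 0.79, so the pattern was not limited to the Glul-rich group. At 4 and 8 h the medians were -0.27 and -0.84 in the Glul-rich hepatocytes. Saa2, a serum amyloid A, was at 30.4 CPM (4 UMIs) when fed, and at 526 CPM (136), 18.2 CPM (1) and 5866 CPM (1276) after 4, 8 and 16 h. The log2 ratio at 16 h was 7.59 (6.23 to 9.47), beside 4.49 in the others, which went from 220 to 4949 CPM. With a Glul minimum of 5 per 10000 it was 4.85.

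The largest single barcode held 74 of the 1276 Saa2 UMIs at 16 h. Saa1 was at 152, 565, 54.5 and 6372 CPM, with 5.39 at 16 h beside 3.66 in the others. Lcn2, an iron-siderophore binder, went from 7.59 CPM (1 UMI) to 510 CPM at 16 h. Fgb, a fibrinogen chain, was at 1836, 1532, 1054 and 5080 CPM, with 1.47 (1.27 to 1.67) beside 1.14. Fed values of Saa2 and Lcn2 rest on 4 UMIs and 1 UMI, and the part of RNA from outside the cells, of the clock hour and of the single library at 16 h in these levels was not tested.

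**Figure D5:**
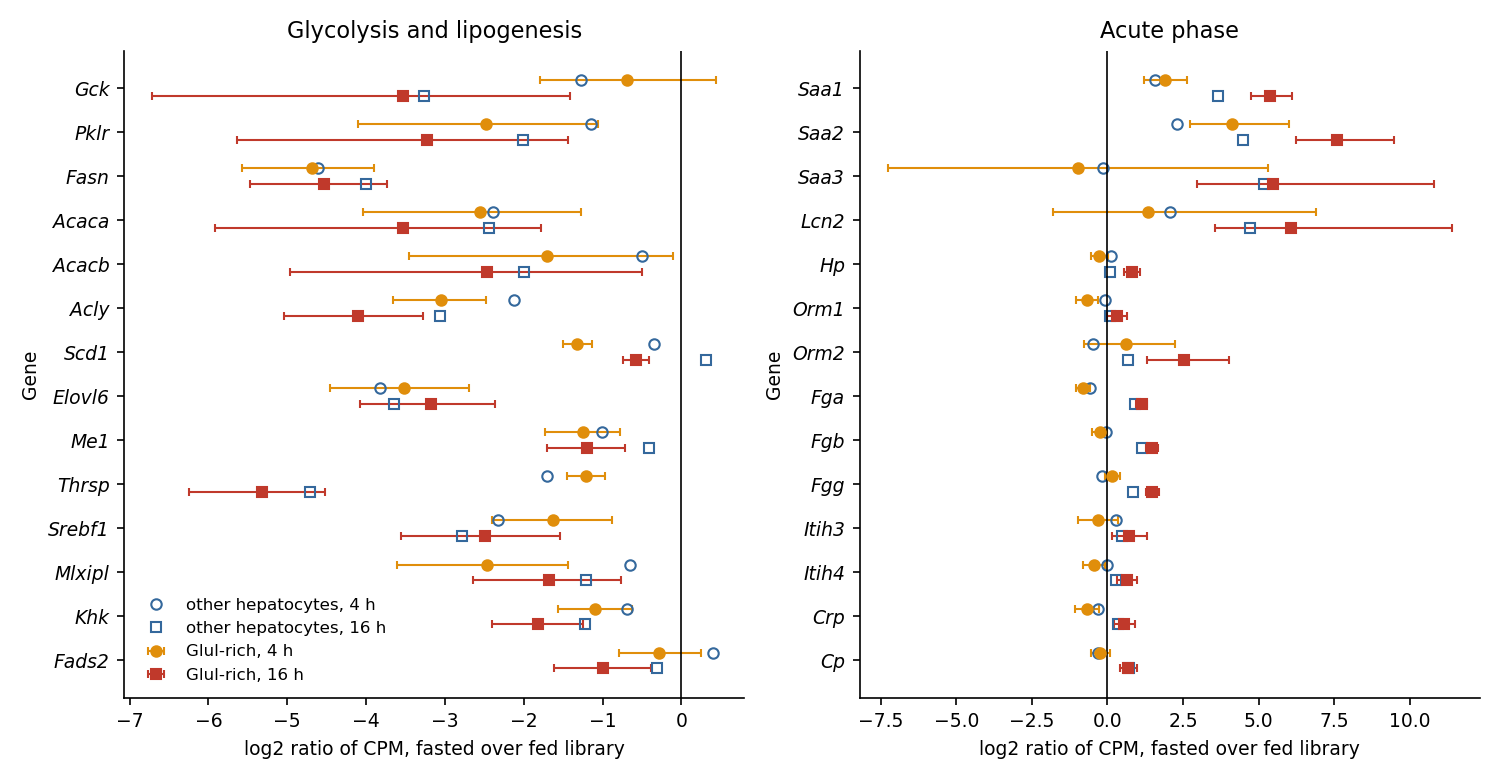
Log2 ratio of the 4 h and 16 h libraries to the fed one for 14 glycolysis and lipogenesis genes and 14 acute-phase genes, in Glul-rich hepatocytes (filled, with 95% counting intervals) and other hepatocytes (open). Lipogenic genes such as Fasn lie below 0 at both times, at -4.68 and -4.54, and acute-phase genes such as Saa2 lie highest at 16 h, at 7.59.

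Some differences from fed came from single barcodes or from those with endothelial markers. Kdr, an endothelial receptor, had 1 UMI in the fed members and 48 at 4 h, all in 3 barcodes, with 0 in members under the non-hepatocyte limit. The 14 fed Cxcl9 UMIs, of a chemokine, lay in 1 barcode. Of the 17 fed UMIs of Hamp2, related to the iron hormone hepcidin, 11 lay in 1 barcode. These 3 genes are given as values of those barcodes alone.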

How the data were processed

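Hepatocytes of 5 libraries (1 per time point) were profiled with 10x 3' v3 chemistry, per the labels' protocols. The authors deposited raw UMI counts per gene and barcode for 32285 genes and 10000 barcodes per library. The submitters' processing notes name Cell Ranger 6.0.1 and mm10. The annotation version, any cell filter and any subsampling of reads are not given in the sources used here. No doublet caller was run, so doublets remain. No column of per-sample values was left unused (0).

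Counts were summed over the cells of a group without the 13 mitochondrial genes and scaled to CPM. Barcodes with at least 20 UMIs per 10000, and at least 3, of 43 non-hepatocyte markers (6 lists) were kept out of the other hepatocytes, not out of the Glul-rich. Genes with at least 50 CPM in either group were compared. A call needed a 2-fold difference, and a group with 0 UMIs was set to a floor of 3 UMIs as a bound. With 1 library per time no test between times was possible. None was run between Glul-rich and other hepatocytes, which had been split on the same data. Intervals are 95% and exact: Poisson for CPM, Clopper-Pearson for shares, conditional binomial for ratios. They cover counting error only. The comparison was also run on simulated data. There the 2-fold rule alone called unchanged genes too, and the interval rule missed part of the changed ones.

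The members, the 10 gene lists (154 genes) and the tests were chosen with earlier results of these data known. The rules for genes named beside the lists took the 12 highest and 8 lowest by median ratio over the libraries, those with the 4 largest differences from fed in each direction at a time, and the 5 whose difference from fed differed most from that of the others at 24 h. The rules name more genes than the text describes. Those described were picked from them after their values were seen, and those of the 24 h rule were left out because it rests on 2 barcodes. After the data were seen, the interval rule, the ranking over 0, 4 and 16 h, the counts per barcode, the counts of genes with 50 CPM in both groups and Igfbp1 were added. Tables were handled with pandas 2.3.3 in Python 3.11.15, intervals came from scipy 1.17.1 with numpy 2.4.6, and plots from matplotlib 3.10.9. Promoters are those of RefSeq on GRCm38.p6.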

Additional observations from a re-analysis of the deposited data

Results flagged for a closer look

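Barcodes under 2% mitochondrial UMIs were outside the main selection, and 30 of them met the Glul minimum at 4 h. They were 0.561% (95% exact binomial interval 0.379 to 0.800) of 5345 such barcodes, against 1 of 2170 (0.0461%) in the fed library, and this difference drew attention to them. At 8, 16 and 24 h the numbers were 2 of 576, 0 of 234 and 0 of 5385. An Oat UMI was found in 30 of the 30, with 5280 CPM against 748 in the rest of the low-mitochondrial barcodes at 4 h, and a Slc1a2 UMI in 6, with 49.9 CPM against 11.1. Cyp2e1 was at 1901 CPM against 2770. Their median was 3968 UMIs against 1828 in the rest, and none passed the non-hepatocyte limit. Whether they are intact cells was not tested.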

How the results depend on the processing

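Comparisons between fasting times could not be paired, because each time was 1 library. Those of Glul-rich with other hepatocytes were made within each library, and no test over the libraries as pairs was run. The 24 h results rest on 2 barcodes and the 8 h ones on 5, and 1 UMI was worth 185 and 18.2 CPM there. Counts of genes and shares moved with the settings as follows. A Glul minimum of 20 per 10000 gave shares of 0.197% at 0 h, 0.329% at 4 h and 0% at 24 h, where no gene comparison could be made, 730 genes at least 2-fold different from the others at 0 h, 117 by interval at 8 h and 74 by interval between 4 h and fed. A minimum of 5 gave shares of 1.54% and 0.833% at 0 and 4 h, 40, 263 and 758 genes at 0, 4 and 8 h, and 26 higher and 2 lower in each of 0, 4 and 16 h. With at most 15% mitochondrial UMIs the 16 h share was 0.834%, with 2274 genes at 4 h against the others and 2324 against fed. Means over cells gave 782 and 2009 genes at 4 and 8 h. TMM gave 1070 genes at 24 h, and in each of 0, 4 and 16 h 48 higher at 2-fold and 27 lower by interval. A minimum of 10 CPM gave 1813, 1641, 2854 and 1317 genes against the others at 0, 4, 8 and 16 h (139 higher and 67 lower in each of 0, 4 and 16 h) and 2319, 2741 and 2116 against fed. A minimum of 100 CPM gave 204, 238, 479 and 176, and 414, 789 and 285. Against the upper tercile of others by Cyp2e1, interval calls were 46, 92 and 47 at 0, 4 and 16 h, 2-fold calls 233 at 4 h and 178 at 16 h, and in each of these libraries 20 higher and 6 lower by interval, 29 and 27 at 2-fold. There Ctsc turned to 0.37 at 4 h and 0.23 at 16 h. With the non-hepatocyte limit on the members too, interval calls were 117 at 8 h and 58 at 24 h, 2-fold calls 663 at 24 h, and against fed 721 at 2-fold and 38 by interval at 24 h. Thinned to 5000 UMIs, the shares at 0 and 24 h were 0.688% and 0%. As reported, the 2-fold counts were 474, 413, 1212, 345 and 1807 against the others, and 888, 1627, 772 and 1865 against fed. Of 1930 alternative values of 151 gene ratios, 355 left the counting interval, 10 had the opposite sign, and 2 of these were of ratios that were 2-fold or more as reported. The cause of these shifts was not tested, apart from the number of genes or members that a setting itself changes.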
